A study of Mus musculus with 6 samples.

Results

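Psmb8, Psmb9, Psmb10, Psme1, Psme2, Tap1, Tap2, Tapbp, Tapbpl and Erap1 are the mouse genes of the immunoproteasome and of peptide loading onto MHC class I. They are 10 of the 22298 rows of the deposited mRNA table and were matched by symbol. The members were selected on measured values of the very contrast described here, si-METTL3 against si-NC, so their differences, and which of them are among the called genes, are given as a description that supports nothing.

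Nucleated cells display fragments of their own proteins on MHC class I. The proteasome cuts proteins into peptides, and interferon makes cells replace its constitutive catalytic subunits with the immunoproteasome subunits Psmb8 (LMP7), Psmb9 (LMP2) and Psmb10 (MECL-1) and cap it with the activator formed by Psme1 and Psme2. The transporter of Tap1 and Tap2 carries the peptides into the endoplasmic reticulum, Erap1 trims them there, and tapasin (Tapbp) and its relative TAPBPR (Tapbpl) select those that bind class I tightly.

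The study measured total RNA of GC-1spg cells, an immortalised mouse spermatogonial line, by RNA sequencing in 3 si-NC and 3 si-METTL3 libraries. All cells grew in DMEM with 10% FBS, received siRNA at 60% density and were harvested 48 h later. The si-METTL3 cells received an siRNA against Mettl3, the catalytic subunit of an RNA methyltransferase, and the si-NC cells a control siRNA, although their treatment label reads untreated. The labels print the same sequence for both siRNAs, name no untransfected group, and do not say whether replicates were separate cultures, so the spread between libraries may be technical.

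Levels are CPM, counts scaled by edgeR to TMM library sizes, and the libraries held between 22146057 and 37698956 mRNA-table counts. Mettl3 fell from 18.3 ± 0.974 CPM (SD, n = 3) to 5.31 ± 0.785 CPM (SD, n = 3), or by a log2 of -1.79 (SE 0.14, edgeR adjusted p = 0.000579). A gene is called below where edgeR's adjusted p is under 0.05. Of 13082 tested genes 2468 were called, which is 18.9%, with 10.2% lower and 8.67% higher in si-METTL3.

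Libraries differed in markers of other cell types. The summed level of 12 lung epithelial markers was 3.62, 2.12 and 56.2 CPM in si-NC 1, 2 and 3, against 84.4, 84.4 and 58.1 CPM in si-METTL3 1, 2 and 3. Summed over 14 leukocyte markers it was between 6.58 and 22.6 CPM in si-NC and between 24.7 and 32.5 CPM in si-METTL3. The 10 endothelial markers summed to between 15.7 and 26.0 CPM in si-NC and between 25.5 and 30.6 CPM in si-METTL3. The lung and leukocyte sums were higher in every si-METTL3 library than in any si-NC library, with si-NC 3 close below, and the endothelial sums overlapped. Of 11 tested lung and 9 tested leukocyte markers, 0 were called over all 6 libraries. Each of the 11 lung markers was called higher in 1 of 6 leave-one-out fits, as were the leukocyte markers Cd74, Csf1r and Lyz2. Over those fits the log2 fold change reached 6.14 for Sftpc and 7.78 for Scgb1a1. Single genes made up much of these sums. Sftpc was 30.8 CPM in si-NC 3 and 47.0, 47.5 and 32.05 CPM in si-METTL3. Lyz2 was 12.3 CPM in si-NC 3 and 18.0, 18.5 and 12.25 CPM in si-METTL3. Most members differed in the other direction than the lung and leukocyte sums. Whether these RNAs came from cells of those types, and their part in the members' values, was not tested. Si-NC 3 and si-METTL3 3 had similar lung sums, and Tap1 was 53.3 CPM in the former and 9.82 CPM in the latter. A single pair of libraries and a member chosen on this contrast decide nothing here. Of 14 germ line markers, Sohlh1, Mael, Tex101 and Nanos2 were at 0 everywhere, and the list summed to between 38.7 and 47.1 CPM in si-NC and between 43.0 and 47.3 CPM in si-METTL3. Most of that sum was Uchl1, at 35.1 to 41.3 CPM. Ddx4, Dazl, Stra8, Sycp3, Sohlh2 and Nanos3 had at most 12 counts in any library and were not tested. Of the 14 markers, 4 were tested and 1, Gfra1, was called. Gfra1, a receptor subunit of spermatogonial stem cells, was 2.51, 2.59 and 3.21 CPM in si-NC, against 4.38, 3.97 and 4.67 CPM in si-METTL3, and rose (0.65, SE 0.17, edgeR adjusted p = 0.0389; called in 1 of 6 leave-one-out fits). In these bulk samples, fewer cells of a type and less RNA per cell cannot be told apart.

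RefSeq promoter windows of GRCm38.p6, from 250 bases before to 50 bases after the start, were at hand for 8 of the 10 members, and not for Tap2 and Tapbpl. Psmb9 and Tap1 lie head to head on chromosome 17, and 225 bases separate their RefSeq start sites. Those bases, chr17:34187331-34187555, are shown on the plus strand, 5′ to 3′ towards Tap1, because they serve as upstream sequence of both genes. Capitals mark the CCAAT letters and the GC box letters (GGGCGG, here on the minus strand).
Psmb9-Tap1: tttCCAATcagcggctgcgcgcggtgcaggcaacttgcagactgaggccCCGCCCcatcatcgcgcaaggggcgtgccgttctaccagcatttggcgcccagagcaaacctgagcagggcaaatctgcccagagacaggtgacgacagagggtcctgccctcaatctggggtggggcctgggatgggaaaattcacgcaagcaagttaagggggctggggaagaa

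Both marked motifs lie at the Psmb9 end of the stretch. The CCAAT letters were also in the Tapbp window and in 37.4% of the 32851 windows of the same length, and the GC box letters were in the windows of 6 members and in 35.7% of all windows. Motifs were searched on both strands.

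The core of the interferon-stimulated response element, which factors of interferon signalling bind, was searched as GAAANNGAAA. It was in the windows of Psme1 and Erap1 and in 3.44% of all windows. The core of the gamma-activated site, a motif of interferon signalling, was searched as TTCNNNGAA and was in the Psmb8 window and in 8.3% of all windows. The kappa B letters GGGANTTTCC were in none of the members' windows and in 0.411% of all. These 3 matches are shown in 30 bases each, because they are the members' only matches to motifs of interferon signalling, on the plus strand with the match in capitals (for Psme1 and Erap1 the motif reads on the minus strand). Their places are chr14:55578493-55578522 for Psme1, chr13:74639839-74639868 for Erap1 and chr17:34198087-34198116 for Psmb8.
Psme1: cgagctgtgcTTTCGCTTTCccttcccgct
Erap1: ccaccttcacTTTCACTTTCggtcccgggc
Psmb8: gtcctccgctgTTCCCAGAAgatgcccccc

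The Psme1 match starts 10 bases into the transcript, the Erap1 match spans the start site from base -4 to base 6, and the Psmb8 match ends 89 bases before the start. A match is a description of these letters only. Tap1, the member that differed most, held neither of these cores in its window, which says nothing about sites elsewhere.

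Of the 3 inducible catalytic subunits, Psmb10 had the highest level per length, as given below in FPKM. Psmb10, which replaces Psmb7 and carries trypsin-like activity, stood at 43.5, 36.0 and 50.7 CPM in si-NC 1, 2 and 3 and at 19.3, 16.8 and 17.7 CPM in si-METTL3. Its lowest control library stood above its highest si-METTL3 library, and the log2 fold change was -1.28 (SE 0.14).

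Psmb8, which replaces Psmb5, stood at 8.24, 8.59 and 5.91 CPM in si-NC, against 5.16, 2.18 and 3.57 CPM in si-METTL3. The groups did not overlap, but si-NC 3 and si-METTL3 1 lay close together. The log2 fold change was -1.04 (SE 0.31), and edgeR did not call it, whereas DESeq2 did. In Psmb8, as in Erap1 and unlike the other members, si-NC 3 was the lowest control. The lowest Psmb8 library of all was si-METTL3 2.

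Psmb9, which replaces Psmb6, rested on few reads, 77, 47 and 90 counts in si-NC, against 28, 29 and 19 counts in si-METTL3. Its levels were 2.19, 1.56 and 2.45 CPM in si-NC, against 0.876, 1.29 and 0.771 CPM in si-METTL3, which gave a log2 fold change of -1.09 (SE 0.30). The groups did not overlap, with si-NC 2 and si-METTL3 2 nearest to each other. Its call remained in 1 of 6 leave-one-out fits, that without si-NC 2.

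**Figure D1:**
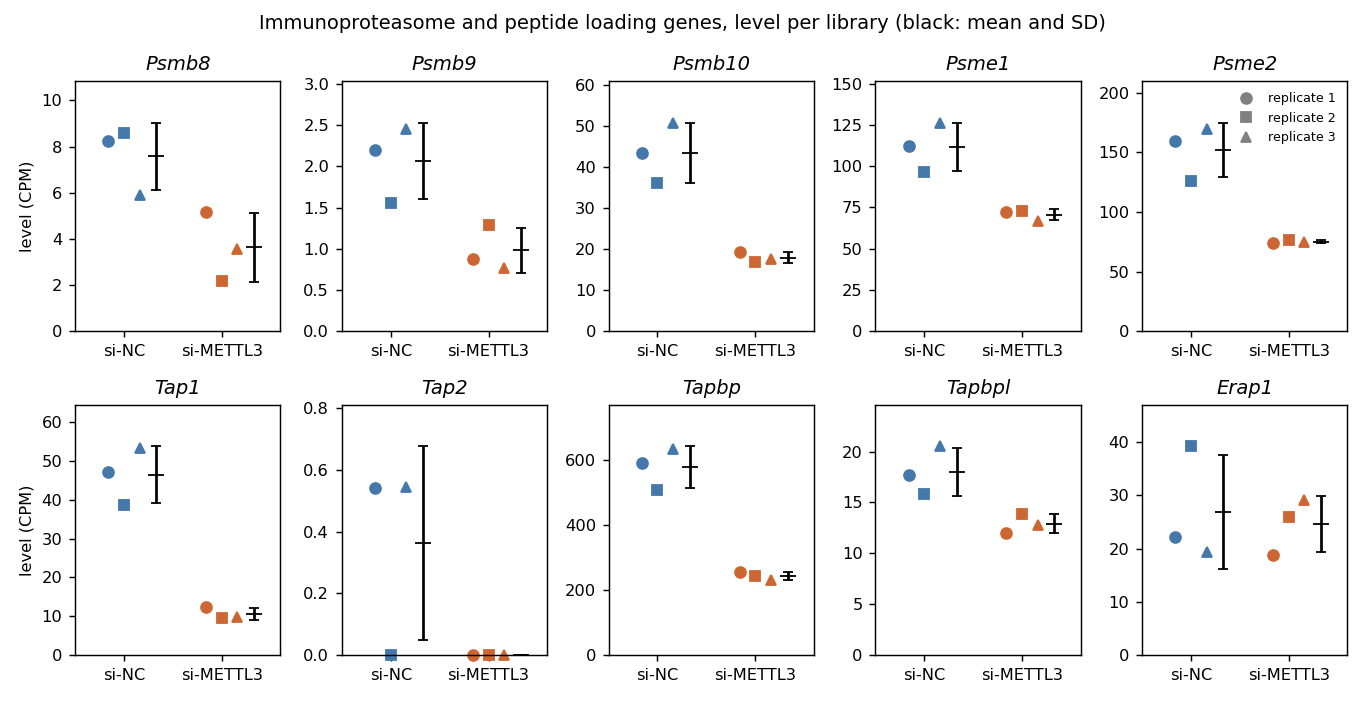
Level in CPM (vertical axes, from 0, scaled per gene) of each of the 10 genes in the 3 si-NC and 3 si-METTL3 libraries; symbols are replicates and black marks the mean with SD. The si-METTL3 points lie below the si-NC points in 8 genes, while in Tap2 and Erap1 the groups overlap.

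The constitutive subunits that they replace were not called over all 6 libraries. Psmb5, the chymotrypsin-like subunit, differed by a log2 of -0.19 (SE 0.10), Psmb6, the caspase-like subunit, by -0.14 (SE 0.08) and Psmb7 by -0.20 (SE 0.10). Without si-NC 2 all 3 were called lower, with a median of -0.28. That fit called 4917 genes in all, against 2468 over all 6 libraries, so nothing is read from these 3 calls. Psmb6 changed sign to 0.06 with transcript length as an offset. Levels of different genes were compared per length, as the authors' FPKM.

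In each library the FPKM of Psmb10 was set against that of Psmb7. The ratio was 21.4%, 22.4% and 26.0% in si-NC, against 12.0%, 11.0% and 14.3% in si-METTL3, without overlap. For Psmb9 to Psmb6 it was 0.307%, 0.239% and 0.313% in si-NC, against 0.131%, 0.231% and 0.122% in si-METTL3. The groups did not overlap here either, but si-METTL3 2 lay close below si-NC 2. For Psmb8 to Psmb5 it was 5.98%, 7.45% and 3.66% in si-NC, against 4.53%, 1.54% and 3.25% in si-METTL3, and the groups overlapped. The si-METTL3 mean ratio was 0.533 of the si-NC mean for Psmb10, 0.564 for Psmb9 and 0.545 for Psmb8. The lengths that the FPKM imply for these 3 genes varied between libraries. From counts with lengths pooled over the libraries, the values were 0.475 for Psmb10, 0.523 for Psmb9 and 0.533 for Psmb8. At the RNA level, then, Psmb10 came nearest to its counterpart, and Psmb9 stayed under 1% of Psmb6 in every library.

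**Figure D2:**
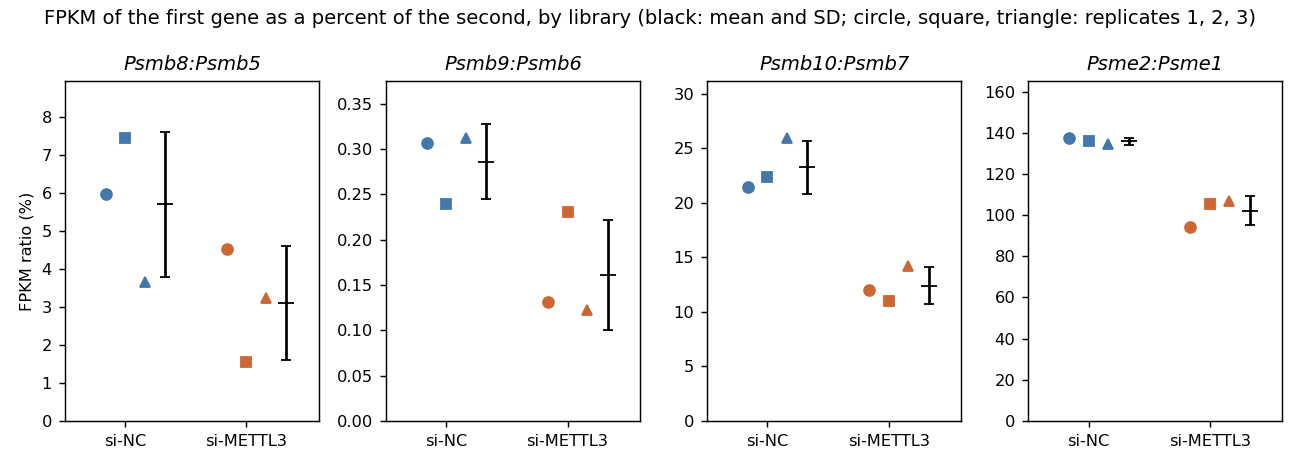
FPKM of the first gene as a percent of the second within each library (vertical axes, from 0), for the 3 immunoproteasome subunits over their counterparts and for Psme2 over Psme1; symbols are replicates and black marks the mean with SD. The groups separate in all panels but Psmb8:Psmb5, where si-NC 3 at 3.66% lies below si-METTL3 1 at 4.53%.

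The activator subunits were abundant and differed unequally. Psme1, the alpha subunit of the activator, stood at 112.4, 96.7 and 125.8 CPM in si-NC, against 72.1, 72.7 and 66.8 CPM in si-METTL3, which gave a log2 fold change of -0.66 (SE 0.11). Psme2, the beta subunit, stood at 159.6, 126.1 and 169.9 CPM in si-NC, against 74.0, 76.2 and 75.1 CPM in si-METTL3, which gave a log2 fold change of -1.02 (SE 0.12). In both the groups were well apart, and the si-METTL3 libraries were tightly bunched. Psme1 was called in 5 of 6 leave-one-out fits, not without si-METTL3 3.

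The FPKM ratio of Psme2 to Psme1, examined after the values were seen, was 1.38, 1.36 and 1.34 in si-NC, against 0.94, 1.06 and 1.07 in si-METTL3. Psme2 thus exceeded Psme1 in every control library, and the RNAs of both subunits were near parity in si-METTL3. GENCODE lists a retrogene copy, Psme2b, on chromosome 11, and how reads shared by the copies were divided was not given in the sources used here. Psme2b stood at 4.30, 9.69 and 4.25 CPM in si-NC, against 4.38, 5.75 and 5.03 CPM in si-METTL3 and was not called (log2 fold change -0.26, SE 0.34). Its counts were far below those of Psme2, and si-NC 2, the lowest control for Psme2, was the highest for Psme2b.

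Of the transporter, Tap1 showed the largest difference of all tested members. Tap1, the transporter chain encoded next to Psmb9, stood at 47.2, 38.7 and 53.3 CPM in si-NC, against 12.5, 9.62 and 9.82 CPM in si-METTL3. Its log2 fold change was -2.12 (SE 0.16), or 4.36-fold lower, and every control library was far above every si-METTL3 library. Without any single library the value lay between -2.28 and -2.04.

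Tap2, the other chain, was almost unread, with 19, 0 and 20 counts in si-NC, against 0, 0 and 0 counts in si-METTL3. The groups overlapped because si-NC 2 also had none, and the gene did not pass the filter on low counts. A count of 0 allows up to 3 counts, or between 0.0939 and 0.134 CPM in the libraries at 0, against 0.542 and 0.545 CPM in the other control libraries. The authors' deposited table lists a log2 fold change of -7.13 for Tap2, with an adjusted p of 1.0. That size comes from a si-METTL3 mean of 0 that the authors' deposited table writes as 0.001. The noncoding Tap2 transcript in the lncRNA table was at 0 in all 6 libraries.

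The loading factors diverged in level and in size of difference. Tapbp, tapasin, which bridges class I molecules to the transporter, stood at 590.7, 507.7 and 634.6 CPM in si-NC, against 255.0, 244.4 and 230.3 CPM in si-METTL3. The log2 fold change was -1.25 (SE 0.10), and the lowest control library lay far above the highest si-METTL3 library. Tapbpl, the peptide editor that acts apart from the transporter, stood at 17.7, 15.8 and 20.5 CPM in si-NC, against 12.0, 13.9 and 12.8 CPM in si-METTL3. Its log2 fold change was -0.49 (SE 0.13), the groups did not overlap, and its call remained in 1 of 6 leave-one-out fits, that without si-NC 2.

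Erap1, the aminopeptidase of the endoplasmic reticulum, went its own way. It stood at 22.3, 39.2 and 19.3 CPM in si-NC, against 18.8, 26.0 and 29.2 CPM in si-METTL3, and the groups overlapped fully except for si-NC 2 above and si-METTL3 1 below. The log2 fold change was -0.13 (SE 0.29) and became 0.24 without si-NC 2 and 0.09 on log2(FPKM + 1). Over 13082 genes, the slope of log2 level on log2 transcript length was -0.11, 0.02 and -0.14 in si-NC, against 0.04, 0.08 and 0.10 in si-METTL3, so within si-NC both Erap1 and this slope were highest in si-NC 2. With length as an offset the Erap1 value was -0.09 (SE 0.30). The transcript length that the authors' FPKM imply for Erap1 ran from 1843 to 3277 bases between libraries. Erap1 also overlaps Cast on the opposite strand, and Cast likewise peaked in si-NC 2 among the controls, at 63.9, 92.2 and 56.7 CPM in si-NC, against 70.1, 89.7 and 92.9 CPM in si-METTL3. Whether strand was used in counting was not given in the sources used here, and its part in the result was not tested.

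**Figure D3:**
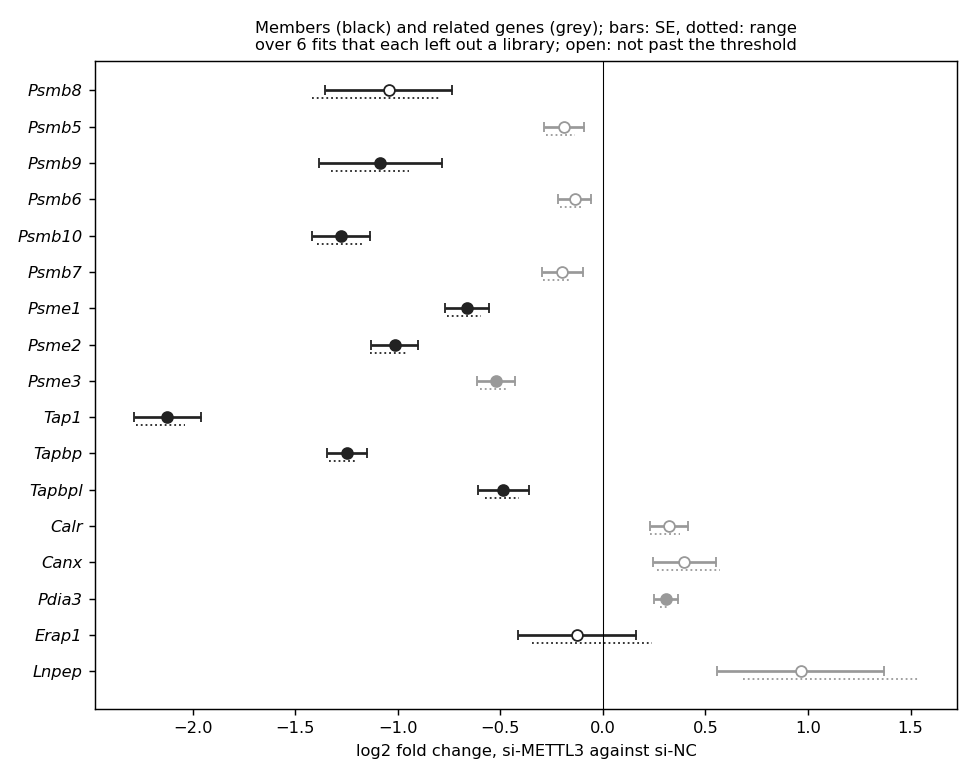
Log2 fold change of si-METTL3 against si-NC (horizontal axis) for the 9 tested members (black) and related genes (grey), with SE as bars and dotted lines for the range over the 6 leave-one-out fits; filled points were called. Tap1 lies farthest left at -2.12, the constitutive subunits Psmb5, Psmb6 and Psmb7 lie near 0, and Erap1 is the only member whose dotted line crosses 0.

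Counted together, 7 of the 9 tested members were among the called genes with a lower level, against 10.2% of all tested genes, and 0 were called higher, against 8.67%. In 8 of the 10 members the si-METTL3 libraries all lay below the si-NC libraries, against 21.3% of tested genes. The median log2 fold change of the 9 was -1.04 and that of all tested genes 0.03. Because the members were chosen on this contrast, nothing is read from these counts. Psmb10, Psme2, Tap1 and Tapbp were called in each of the 6 leave-one-out fits, as were 2.38% of all tested genes in the lower direction. Si-NC 3 stands apart from the other controls in its lung markers. The fit without it called 1624 genes, among them 5 members, Psmb10, Psme1, Psme2, Tap1 and Tapbp. Their log2 fold changes ran from -2.04 for Tap1 to -0.59 for Psme1. The controls left in had lung sums of 3.62 and 2.12 CPM, against 58.1 to 84.4 CPM in si-METTL3. That fit therefore cannot separate the lung signal from the siRNA.

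The order of levels, in mean FPKM with SD over 3 libraries, was not the same in both groups. In si-NC, Tapbp led at 264 ± 23.5, followed by Psme2 at 130 ± 17.7, Psme1 at 95.4 ± 13.4 and Psmb10 at 32.3 ± 5.95, each above the range of the next. Tap1 followed at 13.2 ± 2.01, Erap1 at 9.77 ± 3.75, Psmb8 at 6.45 ± 1.62 and Tapbpl at 6.26 ± 0.741, and neighbours among these 4 overlapped. Psmb9 at 1.27 ± 0.270 and Tap2 at 0.14 ± 0.145 closed the order. In si-METTL3, Tapbp at 109 ± 7.67 still led. Psme2 at 64.7 ± 0.891 and Psme1 at 63.6 ± 4.72 overlapped, and Psmb10 stood at 15.1 ± 1.84. Erap1 at 10.1 ± 1.35 came next, above Tapbpl at 4.54 ± 0.302, Psmb8 at 3.22 ± 1.68 and Tap1 at 3.04 ± 0.485. Tapbpl and Psmb8 overlapped there, as did Psmb8 and Tap1, so the order of these neighbours was not separated. Tap1 was above the range of Tapbpl in si-NC and below it in si-METTL3.

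Within the controls, most members ranked the libraries alike. In 8 of the 10, all but Psmb8 and Erap1, si-NC 2 was the lowest control library and si-NC 3 the highest, in Tap2 by 1 count over si-NC 1. Psmb5, Psmb6 and Psmb7 had the same order, so it was not particular to the members, while Psma1 and Psma2 peaked in si-NC 2. The share of all genes with this order was not counted. Profiles over the 6 libraries were compared as the root mean square distance between centred log2(CPM + 0.1) levels, as a description with no test. Psmb10 and Tapbp, on different chromosomes, were the closest pair at 0.07, followed by Psme1 and Tapbpl at 0.11. Psmb9 and Tap1, which start 225 bases apart, were at 0.62, and Psmb8 and Tap1 at 0.64. Tap1 and Erap1 were the farthest apart at 1.15.

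**Figure D4:**
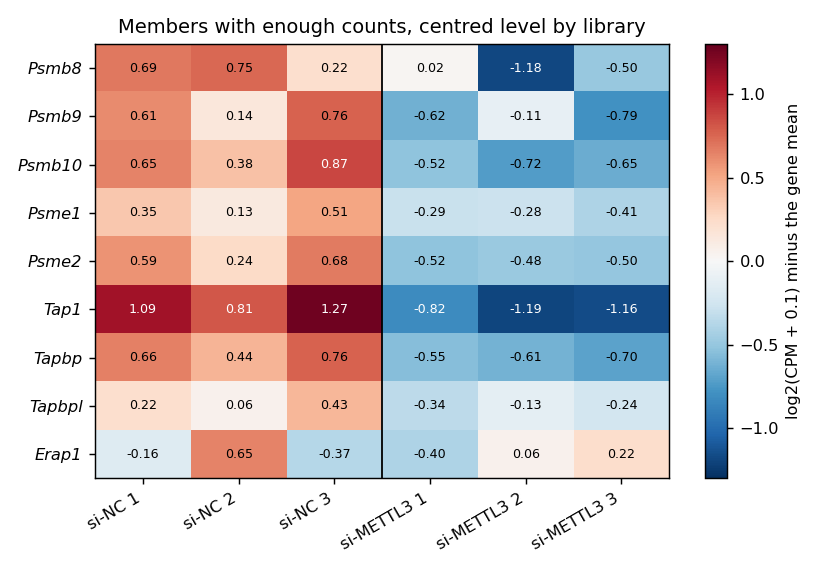
Level of the 9 members with enough counts, as log2(CPM + 0.1) minus the gene's mean over the 6 libraries (colour and printed value), with libraries in columns and a line between si-NC and si-METTL3. Tap1 has the widest span, from 1.27 in si-NC 3 to -1.19 in si-METTL3 2, and Erap1 is the only gene with si-NC 1 and si-NC 3 below 0.

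The head-to-head pair separated in size of difference. The FPKM of Psmb9 was 10.4%, 8.58% and 9.67% of that of Tap1 in si-NC, against 15.0%, 34.5% and 17.2% in si-METTL3, a ratio examined after the values were seen. The groups did not overlap, and the si-METTL3 libraries varied more. The value of si-METTL3 2 rests on 29 Psmb9 counts. The Psmb9 length that the FPKM imply was 1252 bases there, against 1462 to 1525 bases in the other libraries. GENCODE spans of the genes, chr17:34181987-34187764 for Psmb9 on the minus strand and chr17:34187553-34197225 for Tap1 on the plus strand, overlap at their 5′ ends. Psmb8 at chr17:34197721-34201454 and Tap2 at chr17:34203527-34216321 follow on the plus strand, so 4 members lie side by side, and Tapbp lies on the same chromosome at chr17:33915899-33929292. These coordinates are of GRCm38, not of the mm9 build that the submitters' processing notes name.

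Genes with the most similar profiles were looked for among 9867 genes of at least 5 CPM. Among the nearest to Tap1 were Lgals3bp at a distance of 0.16 and the interferon-inducible ADP-ribosyltransferase-family gene Parp12 at 0.17, against a median of 1.08 over all candidates. For Psme1 they were Apip at 0.03, a methionine salvage enzyme, Npc2 at 0.03, a lysosomal cholesterol carrier, and Ybx3 at 0.04, a nucleic acid binding protein, against a median of 0.37. For Psmb8 they were Fgd3 at 0.21, a guanine nucleotide exchange factor, the muscle glycogen phosphorylase Pygm at 0.28 and Oip5 at 0.28, a centromere factor, against a median of 0.69.

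In the rest of the proteasome, every called gene fell, by less than Psme1 did. Of 11 other subunits of the 20S core, 4 fell and 0 rose, against 10.2% and 8.67% of all tested genes, with a median of -0.19. Psmb3, a non-catalytic beta subunit, fell the most (-0.52, SE 0.08, edgeR adjusted p = 0.00922), and Psma4 (-0.43), Psma6 (-0.34) and Psma5 (-0.32) were the others. Of 19 subunits of the 19S regulator, 3 fell and 0 rose, against the same shares of all tested genes, with a median of -0.11. They were Psmd8 (-0.50, SE 0.14, edgeR adjusted p = 0.0474), Psmd6 (-0.34) and Adrm1 (-0.32), a ubiquitin receptor. In leave-one-out fits, Psmb3 kept its call in 4 of 6, Psma4 and Psmd6 in 3, Psma6 in 2, and Psma5, Psmd8 and Adrm1 in 1. With transcript length as an offset, 2 core subunits fell, 1 rose, and 0 of the 19S subunits were called. That fit called 2216 genes in all, against 2468 without the offset, and the shares above are those without it.

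Of the other regulators, Psme3, the nuclear relative of Psme1 and Psme2, fell (-0.52, SE 0.09, edgeR adjusted p = 0.0124), as did the proteasome inhibitor Psmf1 (-0.39, SE 0.10, edgeR adjusted p = 0.031). Psme4, the activator PA200, had a value of 0.69 (SE 0.30) and was not called. The spermatocyte subunit Psma8 was at 0 in every library, and it and the thymus subunit Psmb11 were not tested. Of 8 assembly factors, 4 fell and 0 rose, against 10.2% and 8.67% of all tested genes, with a median of -0.35. Psmg3 fell the most (-0.57, SE 0.09, edgeR adjusted p = 0.00919), with Psmg2 (-0.53), Psmg4 (-0.44) and the maturation protein Pomp (-0.34). Psmg3 kept its call in 4 of 6 leave-one-out fits, Psme3 and Psmg2 in 3, Psmf1 in 2, and Psmg4 and Pomp in 1. With length as an offset, 2 assembly factors fell. Some subunits named in these lists were picked after their values were seen.

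Peptide loading partners in the endoplasmic reticulum, outside the members, were not called lower. Of 5 genes, 2 rose and 0 fell, against 8.67% and 10.2% of all tested genes, with a median of 0.32. Pdia3, the disulfide isomerase bound to tapasin, rose (0.31, SE 0.06, edgeR adjusted p = 0.0155), as did the glucosidase subunit Ganab (0.32, SE 0.09, edgeR adjusted p = 0.0395). The chaperones Calr (0.32, SE 0.09, edgeR adjusted p = 0.0522) and Canx (0.40, SE 0.15) and the folding sensor Uggt1 (0.13, SE 0.06) were not called. Pdia3 kept its call in 2 of 6 leave-one-out fits and Ganab in 1. Ganab was no longer called with length as an offset, while Calr then was (edgeR adjusted p = 0.032), and Uggt1 changed sign to -0.11.

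Peptidases other than Erap1 showed no called change among 10 tested with edgeR, against 18.9% of all tested genes, with a median of 0.01. Lnpep, a relative of Erap1 that trims peptides in endosomes, had a value of 0.96 (SE 0.41) and was not called. Abcb9, the lysosomal relative of Tap1 and Tap2, was not tested.

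Of the MHC class I genes that receive the peptides, B2m and 8 heavy chain genes all fell. These were 9 of 9 tested, against 10.2% of all tested genes, with a median of -1.25. H2-T24 fell the most (-2.26, SE 0.43, edgeR adjusted p = 0.0151). H2-T24 kept its call in 4 of 6 leave-one-out fits, H2-K1 in 3 and the other 7 in all 6. The heavy chain genes resemble each other closely, so reads may have been divided between them. Of 13 tested regulators of such genes, 3 fell and 0 rose, against 10.2% and 8.67% of all tested genes, with a median of -0.19. Among them were Irf1 (-0.50, SE 0.08, edgeR adjusted p = 0.0094) and the NF-kB subunit Rela (-0.37, SE 0.08, edgeR adjusted p = 0.024). Irf1 kept its call in 5 of 6 leave-one-out fits and Rela in 1. Nlrc5, the class I transactivator, had a value of -0.61 (SE 0.35) and was not called, and Irf8 was not tested.

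Genes within 20000 bases of a member in the GENCODE annotation were examined next. Of 15 tested neighbours, 4 fell and 1 rose, against 10.2% and 8.67% of all tested genes, with a median of -0.21. Daxx, a histone chaperone gene 309 bases from the GENCODE span of Tapbp, stood at 66.0, 52.9 and 70.0 CPM in si-NC, against 36.4, 33.4 and 32.6 CPM in si-METTL3 (-0.88, SE 0.12, edgeR adjusted p = 0.00511). The GENCODE span of Tapbp begins at chr17:33915899, whereas the Tapbp promoter window searched above begins at chr17:33919228. Zbtb22, at chr17:33915904-33919325, thus lies between Daxx and the RefSeq start of Tapbp. Rgl2, 251 bases from Tapbp, stood at 28.6, 24.7 and 26.7 CPM in si-NC, against 28.3, 26.6 and 25.2 CPM in si-METTL3, and the groups overlapped. Zbtb22, which overlaps the GENCODE span of Tapbp on the same strand, had a value of 0.28 (SE 0.10) and was not called.

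Next to Psme2, the ubiquitin ligase gene Rnf31, 595 bases away, fell (-0.54, SE 0.14, edgeR adjusted p = 0.0425), and Irf9, a DNA-binding factor of interferon signalling, 12458 bases away, fell by more (-1.58, SE 0.10, edgeR adjusted p = 0.000211). Emc9, which overlaps Psme1, was not called, with a value of 0.38 (SE 0.19). The remaining called neighbours were Pfdn6 near Tapbp (-0.34, edgeR adjusted p = 0.0481) and Slc12a4 near Psmb10 (0.45, edgeR adjusted p = 0.0393), and with length as an offset neither was called. Daxx and Irf9 kept their calls in all 6 leave-one-out fits, Slc12a4 in 2, and Rnf31 and Pfdn6 in 1.

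The lncRNA table, which counts transcripts, holds noncoding transcripts of 3 members. Of 5728 transcripts tested there, 0.576% were called lower. The Tapbp transcript ENSMUST00000172489 had 2353, 1481 and 1937 counts in si-NC, against 781, 443 and 511 counts in si-METTL3, which gave a log2 fold change of -1.46 (SE 0.21). It was among those called, also in 1 of 6 leave-one-out fits, that without si-NC 2. A second Tapbp transcript, ENSMUST00000234273, had 667, 784 and 1178 counts in si-NC, against 198, 278 and 226 counts in si-METTL3 (-1.58, SE 0.29) and was not called. Both had lower counts in every si-METTL3 library, like the mRNA.

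Noncoding transcripts held 12.7%, 12.9% and 11.8% of all Tapbp counts in si-NC, against 10.7%, 11.6% and 11.5% in si-METTL3, so the mRNA table does not hold all reads of the gene. Gm19412, annotated antisense over Tapbp, had 106, 80 and 108 counts in si-NC, against 46, 29 and 30 counts in si-METTL3 for transcript ENSMUST00000185388 (-1.20, SE 0.25) and was not called. Without knowledge of strand, its reads and those of Tapbp cannot be told apart. The Psmb10 transcript ENSMUST00000212332 had 46, 51 and 111 counts in si-NC, against 43, 21 and 56 counts in si-METTL3, and the groups overlapped (-0.51, SE 0.46). Its share of all Psmb10 counts was 2.93%, 4.48% and 5.63% in si-NC, against 6.53%, 5.29% and 11.4% in si-METTL3. The shares overlapped too, but unlike for Tapbp the highest were in si-METTL3.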

How the data were processed

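Per the file headers, the authors deposited FPKM values and whole-number counts of each library for 22298 genes and 30924 lncRNA transcripts. The submitters' processing notes name fastp, Bowtie2, StringTie, RSEM and mm9; roles, versions and the use of strand are not given in the sources used here. If RSEM made the counts, the authors rounded them. The authors' deposited table also holds log2 fold changes and p-values from a test not given there.

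The edgeR package 4.0.16 (R 4.3.3) tested the counts (TMM scaling, filterByExpr, quasi-likelihood F test, Benjamini-Hochberg adjustment over all tested genes). The code was run on simulated counts with the same dispersion for every gene, which does not cover the spread between these libraries. SE is the absolute log2 fold change over the square root of F. Alternatives used DESeq2 1.42.0, limma 3.58.1 on voom values and on log2(FPKM + 1) or log2(FPKM + 0.1), other scalings, no filter, a transcript length offset (length recovered from counts and FPKM; per-library loess, span 0.5) and leaving out each library. The members and gene lists were chosen with earlier results of these data known. Most genes were named by a fixed rule: all members, every gene of lists under 6, the called extremes of longer lists, relatives of members, called neighbours, and the 3 genes with the nearest profiles. Rgl2, Zbtb22, Emc9, Cast, Psme2b, Nlrc5, Irf8, Gfra1, Uchl1 and the other called subunits and regulators were named after their values were seen. So were Sftpc, Scgb1a1, Lyz2, Cd74, Csf1r, Ddx4, Dazl, Stra8, Sycp3, Sohlh2, Nanos3, Psma1 and Psma2. Neighbours and gene spans came from GENCODE M21. Library totals limit the precision of genes with few counts, and the floor of 3 counts covers counting error only. A further marker list and some genes are not reported here.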

Additional observations from a re-analysis of the deposited data

How the results depend on the processing

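Several single values changed sign. Erap1 (-0.13) became 0.0905 on log2(FPKM + 1) and 0.105 on log2(FPKM + 0.1), and ran from -0.345 to 0.241 in leave-one-out fits, above 0 without si-METTL3 1 and without si-NC 2. Psme2b became 0.0227 with the replicate block and length offset, and ran from -0.494 to 0.234, above 0 without si-NC 2. Psmb6 became 0.0603 and Uggt1 -0.111 with the length offset, 0.0601 and -0.106 with the replicate block and length offset. ENSMUST00000212332 ran from -0.851 to 0.0128 (without si-NC 3), and ENSMUST00000160523, a Vamp1 transcript over Tapbpl, from -0.189 to 0.147 (without si-NC 2).

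Genes called numbered 752, 4917 and 1624 without si-NC 1, 2 or 3 and 1356, 687 and 665 without si-METTL3 1, 2 or 3. Called members numbered between 4 and 8 over the same fits, 4 without si-METTL3 3, and 8 with Tap2 without si-NC 2. In that fit Tap2 passed the filter through si-NC 1 and si-NC 3 alone, because si-NC 2, the control at 0, was left out. Nothing is read from that call of Tap2. Psmb9 and Tapbpl lost their calls most often. Called pathway genes outside the members (27 in all) ranged from 9 to 54, with 11 without si-NC 1, 54 without si-NC 2, and 10 and 9 without si-METTL3 2 and 3. Called neighbours (5) ranged from 2 to 7, with 7 without si-NC 2, 3 without si-NC 3 and 2 without each of the others, and were 3 under upper-quartile scaling and with the length offset. The members' median of -1.04 became -0.88 on log2(FPKM + 1) and -0.89 with the length offset. Called member transcripts of the lncRNA table numbered 2 with no filter on low counts and between 0 and 1 over leave-one-out fits. The causes were not tested.

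With the replicate number as a block, 1273 genes, 17 pathway genes, 3 neighbours, 0 member transcripts and 5 members were called, and 1184, 12 and 3 of the first 3 with the length offset added. Same-numbered libraries did not deviate together (r = 0.0239, 0.174 and -0.259 across genes), and not every library correlated best with its own number. Depth limits Tap2 and Psmb9 the most.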
